A study of Homo sapiens with 9 samples.

Results

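Imprinted genes are expressed mainly from the chromosome inherited from one parent, under the control of methylation laid down in the germ line. A set of 10 such genes was followed here across cultures of a human germ cell tumour line exposed to organophosphates (OPs). The members were H19, IGF2, MEG3, DLK1, PEG3, PEG10, SNRPN, NDN, MEST and CDKN1C, and they were taken by gene name from the non-control probes of the arrays. No measured value entered this rule, but the set was chosen with earlier results of these data known. The 10 genes had 15 probes among 42405 probes carrying 34623 distinct gene names. Each gene had at least 1 probe bright enough to be tested, and 14 of the 15 probes were tested.

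RNA came from NT2 cells (hNT2 in the sample labels), an embryonal carcinoma line of a human teratocarcinoma that yields neuron-like cells in retinoic acid (RA). The cultures were differentiated for 4 days in medium with 10 μM RA, and the controls received this medium too. The treatments were no OP (control), 1 μM paraoxon, which is an OP not known to cause delayed neuropathy, and 5 μM mipafox, an OP that inhibits neuropathy target esterase. RNA was labelled after 96 h and hybridized to 9 single-colour Agilent arrays, 3 for each treatment, named A, B and C. There were 2 slides, the first with all controls plus mipafox A and the second with all paraoxon arrays plus the remaining mipafox arrays (B, C), so that slide and paraoxon exposure cannot be told apart in the comparison with control. The paper describes the replicates as technical and the sample labels as biological, and the p-values measure only the spread between these arrays. All samples come from a single cell line, and the labels name no clone.

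The share of probes well above background was 65.7% to 73.6% by array, and no probe was saturated. The correlation of signals between arrays of the same treatment ranged from 0.974 to 0.996. The labelled cell type was checked against its markers. Of 12 embryonal carcinoma markers on the array, 11 were well above background on all 9 arrays, as were all 9 markers of the RA response and 6 of 9 neural markers. The endoderm markers APOA2 and TTR and the trophoblast markers ERVFRD-1, ERVW-1 and HSD3B1 were well above background on no array, while 3 of 9 endoderm, 3 of 8 trophoblast and 7 of 8 mesenchyme and muscle markers were well above background on all 9.

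The members fall into clusters that share control elements. On chromosome 11, H19 is a maternally expressed non-coding RNA and IGF2 a paternally expressed fetal growth factor, and both compete for shared enhancers through a differentially methylated region between them. CDKN1C, on the same chromosome arm, is a maternally expressed inhibitor of cyclin-dependent kinases. On chromosome 14, DLK1 encodes a paternally expressed membrane protein that restrains differentiation, and MEG3 is a maternally expressed non-coding RNA. SNRPN, which encodes a spliceosome protein, and NDN, which encodes the growth suppressor necdin, are paternally expressed genes of the Prader-Willi region on chromosome 15. PEG3 is a zinc finger gene, PEG10 derives from a retrotransposon and MEST encodes a hydrolase-like protein, and these are paternally expressed too. Imprints can be lost in germ cell tumours, because germ cells erase them. The arrays measured the sum of both parental copies, and in bulk RNA fewer expressing cells cannot be told apart from less RNA per cell.

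Probe positions follow the array files, on build hg19. The probes of H19 and IGF2 with the highest signal lay 133.7 kb apart, those of IGF2 and CDKN1C 754.4 kb, those of DLK1 and MEG3 94.9 kb, and those of NDN and SNRPN 1.29 Mb. Of the 15 probes 5 are shown, because the comparisons below turn on what they detect. They are the H19 probe (chr11:2016674-2016733, minus strand), the dimmer IGF2 probe (chr11:2154402-2154754, minus strand), both MEG3 probes (chr14:101295974-101296033 and chr14:101327286-101327345, plus strand) and the SNRPN probe (chr15:25220523-25220582, plus strand). Capitals mark AATAAA, the polyadenylation signal, searched on the printed strand:
H19: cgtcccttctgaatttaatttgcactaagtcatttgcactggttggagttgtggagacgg
IGF2, dimmer probe: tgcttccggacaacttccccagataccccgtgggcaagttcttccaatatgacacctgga
MEG3, brighter probe: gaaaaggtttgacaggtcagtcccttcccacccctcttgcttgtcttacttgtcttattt
MEG3, dimmer probe: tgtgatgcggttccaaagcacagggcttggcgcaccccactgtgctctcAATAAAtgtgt
SNRPN: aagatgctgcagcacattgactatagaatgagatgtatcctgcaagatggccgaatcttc
Each probe is 60 bases long. The dimmer IGF2 probe spans 353 bases of the genome, so that it crosses a gap such as an intron, and the others shown match a continuous stretch. The MEG3 probes lie far apart in the same gene, and only the dimmer of them holds AATAAA, a motif found in 2 of the 15 member probes and in 7.0% of all probes. GC content ranged from 35.0% to 60.0% over the member probes, with a median of 43.3%, the same median as over all probes. Exon and UTR annotation on hg19 was not used here.

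All 10 genes were detected in the control cultures and in the exposed ones. Levels are given as log2 signal relative to the 75th percentile of the same array, and levels of different probes are not set against each other because probes differ in binding. Of the 15 probes, 12 were well above background on all 9 arrays. At their brightest probe, 7 genes (H19, IGF2, PEG10, SNRPN, NDN, MEST and CDKN1C) exceeded the array's 75th percentile on every array, and MEG3, DLK1 and PEG3 lay around it. The H19 spots reached 4713 to 7356 times the local background and still did not saturate. H19 had a mean level of 7.62 ± 0.30 (SD, n = 3) in control, 7.46 ± 0.059 with paraoxon and 7.70 ± 0.019 with mipafox. The dimmer probes of IGF2 and PEG3 were well above background on 8 of 9 arrays each. The third IGF2 probe, at chr11:2167856-2167915, was well above background on none and was not tested.

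The first question was whether either OP changed the expression of these genes. No member probe passed an adjusted p under 0.05 with a log2 fold change beyond 1 in limma, in paraoxon against control, mipafox against control or paraoxon against mipafox. The share called over all 29134 tested probes was likewise 0% in each of these comparisons. For paraoxon against control, 1 of the 10 genes at its brightest probe (IGF2) had an unadjusted p under 0.05, beside 13.3% of all tested probes. For mipafox against control 0 of 10 did, beside 6.96%. The median log2 fold change over the 10 genes was -0.16 with paraoxon, with 4 genes higher and 6 lower, and 0.093 with mipafox, with 7 higher and 3 lower. Over all tested probes these medians were 0.012 and 0.00099, with 15118 higher and 14016 lower with paraoxon and 14614 higher and 14520 lower with mipafox.

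The size of change that the limma fit without slide still allows was read from its 95% intervals. With paraoxon, the intervals of 8 of the 10 genes lay wholly within a log2 fold change of -1 to 1, and those of MEG3 (-0.16 to 1.19) and PEG3 (-1.01 to 0.33) did not. With mipafox the intervals of 9 genes did, MEG3 again being the exception (-0.25 to 1.097). In this fit a doubling or halving was therefore outside the interval for most of these genes. Because slide and paraoxon exposure cannot be told apart, these intervals do not bound the effect of paraoxon itself. With slide as a block the paraoxon changes had larger standard errors, as for IGF2 (-0.59, SE 0.27) and MEG3 (0.27, SE 0.56). That fit ties the slides together through the mipafox arrays alone. Mipafox A was the only exposed array on the slide of the controls.

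IGF2, the growth factor of the set, gave the smallest p among the members. The level at its brightest probe (chr11:2150394-2150453, minus strand) was 0.56, 0.51 and 0.62 in the control arrays, each set of values being given in the order A, B, C. It was 0.30, 0.05 and 0.20 with paraoxon and 0.58, 1.01 and 0.59 with mipafox. The paraoxon arrays lay below every control and every mipafox array, while the mipafox and control arrays overlapped. The log2 fold change with paraoxon was -0.38 (SE 0.16), which is 0.770-fold, with an unadjusted p of 0.0379 and an adjusted p of 0.335 in limma. A position of all paraoxon arrays below all control arrays was found at 11.1% of tested probes. The change kept its sign under 17 alternative ways of processing, which gave -0.59 to -0.29 with a smallest adjusted p of 0.0985. Slide as a block gave the lower end of this range. With mipafox the change of IGF2 was 0.16 (SE 0.16, adjusted p = 0.919 in limma). It was 0.020 without mipafox B and 0.019 with slide as a block, and with array weights 0.39 with an adjusted p of 0.0389, short of the fold change limit. The weighted fit leaned on few arrays per treatment, as given for MEG3 below.

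The dimmer IGF2 probe, printed above, stood close to background. Its level was -5.40, -6.32 and -6.17 in control, -6.06, -6.98 and -6.19 with paraoxon and -6.09, -5.05 and -5.13 with mipafox. These groups overlapped except that mipafox B and C exceeded all other arrays. Against control it differed by -0.45 (SE 0.36) with paraoxon and 0.54 (SE 0.36) with mipafox, with adjusted p of 0.671 and 0.850 in limma. As reported here, both IGF2 probes had the same signs with each compound, but with slide as a block the mipafox value of the dimmer probe was -0.13. With normexp background correction the paraoxon value of the dimmer probe was 0.032, and with array weights 0.0029.

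H19 shares its enhancers with IGF2 and is expressed from the opposite parental copy. Its level was 7.96, 7.44 and 7.46 in control, 7.39, 7.51 and 7.49 with paraoxon and 7.72, 7.69 and 7.68 with mipafox. Control A was the highest of the 9 arrays, and the other control arrays lay among the paraoxon arrays. The log2 fold change was -0.16 (SE 0.16, adjusted p = 0.760) with paraoxon and 0.077 (SE 0.16, adjusted p = 0.971) with mipafox in limma. Without control A these values became 0.015 and 0.25, with adjusted p of 0.987 and 0.651. H19 and IGF2 each lay lower with paraoxon than with mipafox on every array, as described further below.

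CDKN1C, the cell cycle inhibitor of the neighbouring chromosome 11 domain, had levels of 3.39, 3.46 and 3.26 in control, 3.22, 2.96 and 3.44 with paraoxon and 3.69, 3.52 and 3.05 with mipafox. All 3 treatments overlapped. Relative to control, the mean log2 level of CDKN1C differed by -0.16 (SE 0.20) with paraoxon and 0.050 (SE 0.20) with mipafox, with adjusted p of 0.805 and 0.988 in limma.

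At the brightest probes, MEG3 was the member with the largest positive log2 fold change in both comparisons with control, and 1 control array decided its size. The level at the brighter probe was 0.011, -1.002 and -1.03 in control. It was -0.09, -0.50 and 0.11 on the paraoxon arrays and -0.42, 0.08 and -0.42 on the mipafox arrays. Every exposed array exceeded control B and C, and control A exceeded all exposed arrays except paraoxon C and mipafox B. In limma, MEG3 at this probe gave a log2 fold change of 0.52 (SE 0.30, adjusted p = 0.516) with paraoxon and 0.42 (SE 0.30, adjusted p = 0.859) with mipafox. Without control A these were 0.86 and 0.76, with adjusted p of 0.205 and 0.573. Array weights led to 0.81 with paraoxon and 0.94 with mipafox, with adjusted p of 0.0174 and 0.0126 in limma, short of the fold change limit. The weights were 4.37 for control B, 3.33 for paraoxon A and 3.05 for mipafox B. They were 0.387 for control A, 0.395 for paraoxon C, 0.400 for mipafox A and 0.285 for mipafox C. The weighted fit thus leaned on few arrays per treatment. Over all tested probes it called 671 with paraoxon and 800 with mipafox. With slide as a block the values were 0.27 and 0.26.

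The dimmer MEG3 probe, which carries the polyadenylation signal, did not follow the brighter probe in size. Its level was -1.87, -2.18 and -2.35 in control, -2.12, -2.26 and -1.94 with paraoxon and -1.87, -1.92 and -2.22 with mipafox. Control A was again the highest control array, by a smaller margin, and the treatments overlapped. At this probe the log2 fold change was 0.024 (SE 0.17) with paraoxon and 0.13 (SE 0.17) with mipafox, with adjusted p of 0.977 and 0.953 in limma. The difference between the MEG3 probes was not tested.

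DLK1, the neighbour of MEG3 expressed from the other parental copy, had levels of 0.08, 0.06 and -0.0105 at its brighter probe in control. It had -0.0021, -0.27 and -0.26 with paraoxon and 0.40, 0.15 and -0.06 with mipafox. Paraoxon A lay just above control C, so the groups overlapped. DLK1 at this probe differed from control by -0.22 (SE 0.16, adjusted p = 0.611) with paraoxon and 0.12 (SE 0.16, adjusted p = 0.949) with mipafox in limma. The dimmer DLK1 probe gave -0.39 (SE 0.20) and -0.12 (SE 0.20), so that the probes had the same sign with paraoxon and opposite signs with mipafox. With slide as a block the paraoxon values were 0.14 at the brighter and 0.10 at the dimmer probe, of the opposite sign.

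SNRPN levels were 2.55, 2.53 and 2.68 in control, 2.55, 2.78 and 1.76 with paraoxon and 2.18, 2.36 and 2.94 with mipafox. Paraoxon C was the lowest and mipafox C the highest of the 9 arrays, and the exposed arrays spread on both sides of control. SNRPN differed from control by -0.22 (SE 0.28, adjusted p = 0.809) with paraoxon and -0.096 (SE 0.28, adjusted p = 0.981) with mipafox in limma. The match of this probe to the related SNRPB was not examined. SNURF, which shares a transcript with SNRPN, gave -0.40 (SE 0.33) and -0.23 (SE 0.33) at its own probe.

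NDN, the other Prader-Willi member, had the steadiest values of the set. Its probe was printed 10 times on each array, and only 4.96% of tested probes had a smaller pooled SD than its 0.106. NDN levels were 1.69, 1.74 and 1.57 in control, 1.67, 1.58 and 1.89 with paraoxon and 1.76, 1.79 and 1.78 with mipafox. The mipafox arrays lay just above all control arrays, a position found at 5.34% of tested probes. For NDN the log2 fold change was 0.047 (SE 0.13, adjusted p = 0.931) with paraoxon and 0.11 (SE 0.13, adjusted p = 0.943) with mipafox in limma.

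Among PEG10, MEST and PEG3, PEG10 came nearest to a difference with mipafox. PEG10 levels were 2.52, 2.19 and 2.20 in control, 2.41, 2.13 and 2.68 with paraoxon and 2.40, 2.83 and 2.75 with mipafox. Mipafox A lay below control A, and mipafox B and C, on slide 2, lay above all control arrays. For PEG10 the log2 fold change was 0.10 (SE 0.19, adjusted p = 0.879) with paraoxon and 0.36 (SE 0.19, adjusted p = 0.801) with mipafox in limma. With slide as a block the mipafox value was 0.096, and with array weights it was 0.57 with an adjusted p of 0.0146, short of the fold change limit.

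MEST levels were 1.22, 1.44 and 1.37 in control and 1.30, 1.45 and 1.36 with paraoxon. They were 0.82, 1.31 and 1.80 with mipafox, so that the mipafox arrays held both the lowest and the highest value of the 9. MEST means differed from control by 0.027 (SE 0.23) with paraoxon and -0.031 (SE 0.23) with mipafox, with adjusted p of 0.980 and 0.993 in limma.

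PEG3 levels at its brighter probe were 0.18, 0.26 and -0.05 in control, -0.05, -0.73 and 0.15 with paraoxon and 0.16, 0.11 and -0.78 with mipafox. Paraoxon B and mipafox C were far below the rest, and the other exposed arrays lay within the control range or beside it. PEG3 means differed from control by -0.34 (SE 0.30) with paraoxon and -0.30 (SE 0.30) with mipafox, with adjusted p of 0.696 and 0.921 in limma. Without paraoxon B the first value was -0.079, and without mipafox C the second was -0.00040. The dimmer PEG3 probe gave 0.67 (SE 0.52) and -0.56 (SE 0.52), so the probes disagreed in sign with paraoxon.

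Because the slides differed, each change was also read within a slide. On slide 1, mipafox A minus the mean of the 3 controls ranged from -0.52 (MEST) to 0.36 (DLK1) over the brightest probes, and was 0.019 for IGF2. On slide 2, paraoxon minus the mean of mipafox B and C was -0.61 for IGF2, -0.38 for PEG10, -0.28 for SNRPN and -0.22 for both H19 and DLK1. The same compound on different slides, mipafox B and C minus mipafox A, differed by 0.74 for MEST, -0.49 for PEG3 and 0.47 for SNRPN. Each was larger in size than the reported change of that gene with mipafox or paraoxon. Mipafox B and C also differed from each other within slide 2, at 1.31 and 1.80 for MEST, 0.11 and -0.78 for PEG3 and 2.36 and 2.94 for SNRPN. Mipafox A stood at 0.82, 0.16 and 2.18 for these genes, so the values do not measure slide alone. With slide as a block the sign of the paraoxon change turned for DLK1, PEG3, PEG10, MEST and CDKN1C. Every change against control in that fit passes through the single array mipafox A. Its mipafox values are mipafox A minus the controls, so they repeat the reading on slide 1 and are not a separate check. The part of the slide in these values was not tested beyond this.

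**Figure D1:**
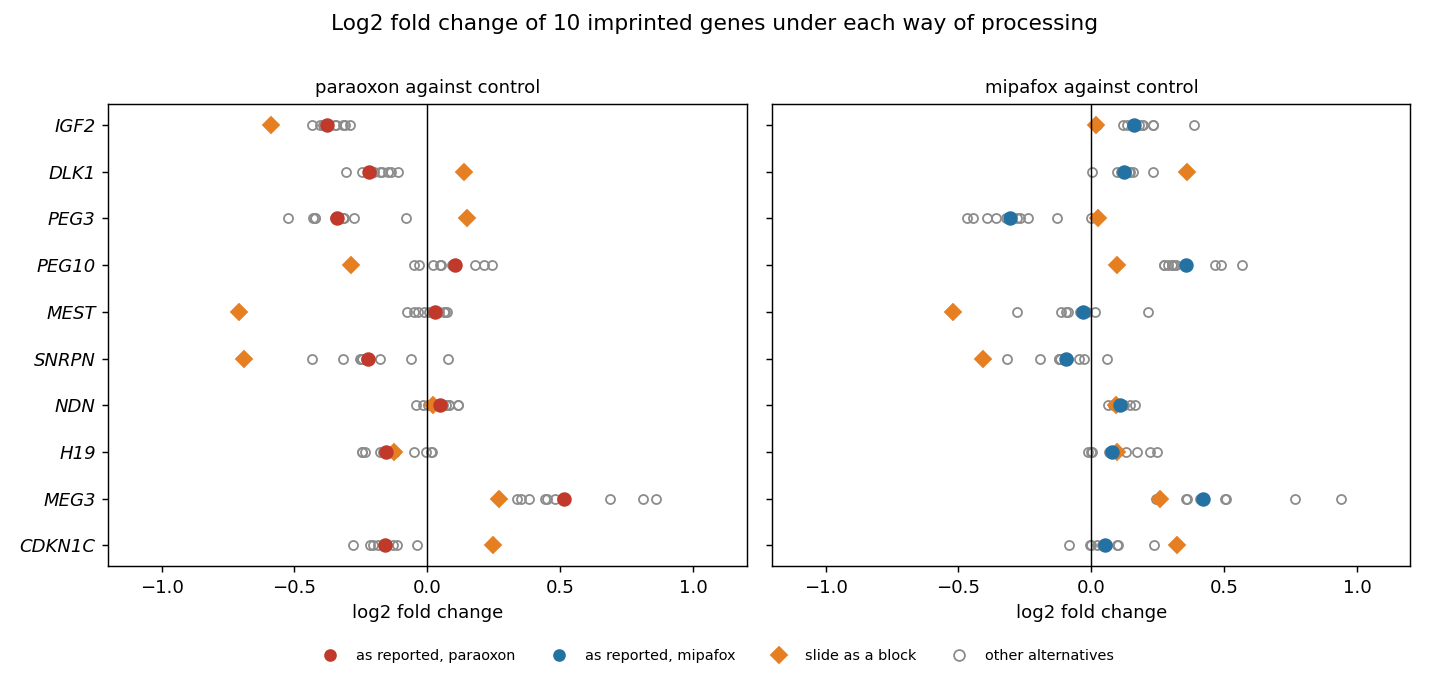
Log2 fold change against control (x axis) of each imprinted gene (y axis) at its brightest probe, with paraoxon (left) and mipafox (right), as reported (filled circles), with slide as a block (diamonds) and under the other alternatives (open circles). The paraoxon values of IGF2 stay between -0.59 and -0.29, while those of MEST run from -0.71 to 0.074.

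The OPs were also compared with each other, although at different doses (1 μM paraoxon and 5 μM mipafox), so that the values set these exposures side by side and not the compounds at matched dose. At their brightest probes, 8 of the 10 genes had a lower mean level with paraoxon than with mipafox, all but MEG3 and MEST. Of the 29134 tested probes 13846 were lower. The median log2 difference of the 10 genes was -0.17, beside 0.014 over all tested probes. Of 17 alternatives, 4 turned the sign of this difference for PEG3, 3 for SNRPN, 2 each for MEG3 and MEST and 1 for NDN. IGF2 differed most, by -0.54 (SE 0.16, 95% interval -0.89 to -0.19), with an unadjusted p of 0.00692 and an adjusted p of 0.998 in limma. For IGF2 and H19 all paraoxon arrays lay below all mipafox arrays, a position found at 3.84% of tested probes, and H19 differed by -0.23 (SE 0.16). An unadjusted p under 0.05 was found for 1 of the 10 genes at its brightest probe, beside 4.02% of tested probes, and also for the dimmer probes of IGF2 (-0.98, SE 0.36) and PEG3 (1.23, SE 0.52), both close to background. The intervals of all 10 genes lay within -1 and 1. These 3 comparisons share arrays, so their values are not independent.

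Other imprinted genes on the array were described in the same way, from lists of textbook members. The parental labels are those of the lists, and the parental copy in use was not measured in these cells. Of 20 listed paternally expressed genes 18 were on the array and 15 were tested, and of 14 maternally expressed genes 11 were tested. No gene of these lists was called. With paraoxon, 12 of the 15 paternally expressed genes had a higher mean than control, with a median log2 fold change of 0.17, beside a median of 0.012 and 15118 higher among the 29134 tested probes. An unadjusted p under 0.05 was found for 3 of these 15 genes with paraoxon and 2 with mipafox, beside 13.3% and 6.96% of tested probes. With mipafox 7 were higher and 8 lower, with a median of -0.038. Of the maternally expressed genes 7 were higher and 4 lower with each compound, with medians of 0.095 and 0.044, and 2 and 1 of them had an unadjusted p under 0.05. MKRN3, USP29, RTL1 and CPA4 were well above background on no array.

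The smallest p among the paternally expressed genes with paraoxon belonged to KCNQ1OT1, the antisense RNA whose transcription silences CDKN1C on the same chromosome. Its level was -4.62, -4.27 and -4.60 in control, -3.64, -3.57 and -3.48 with paraoxon and -4.70, -3.95 and -4.44 with mipafox. All paraoxon arrays lay above all others, and a position above all controls was found at 12.4% of tested probes. The log2 fold change with paraoxon was 0.93 (SE 0.20, adjusted p = 0.0967 in limma). In the fit of control and paraoxon arrays alone the adjusted p was 0.0366, without mipafox A it was 0.0466 and with array weights 0.0107, each short of the fold change limit. This signal was low, and the change was 0.44 (adjusted p = 0.363) with normexp background correction and 0.29 (adjusted p = 0.232) in the authors' processed values. Mipafox on slide 2 exceeded mipafox on slide 1 by 0.50, paraoxon exceeded mipafox within slide 2 by 0.63, and with slide as a block the paraoxon change was 0.43 with an adjusted p of 0.678.

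NNAT, a proteolipid gene of developing brain, gave 0.83 (SE 0.29) with paraoxon, and MAGEL2, a neighbour of NDN, gave 0.32 (SE 0.12), with adjusted p of 0.255 and 0.287 in limma. The mean NNAT level was -3.88 in control, -3.05 with paraoxon and -3.33 with mipafox, and its mipafox change was 0.55 (SE 0.29). The paraoxon change of NNAT was 0.60 with normexp, 0.61 in the authors' processed values and 0.62 without paraoxon C. MAGEL2 levels were 0.44, 0.42 and 0.37 in control, 0.77, 0.67 and 0.77 with paraoxon and 0.87, 0.78 and 0.70 with mipafox. All 6 exposed arrays lay above all controls, a position found at 12.4% of tested probes with paraoxon and 5.34% with mipafox. The mipafox change of MAGEL2 was 0.37 (adjusted p = 0.548 in limma), and that of FAM50B was 0.35 (adjusted p = 0.593). NDN differed from control by at most 0.11.

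Of the maternally expressed genes, TFPI2, a protease inhibitor gene of the imprinted cluster that holds PEG10, stood lower with both compounds. Its level was -0.95, -0.67 and -0.78 in control, -1.66, -1.41 and -1.51 with paraoxon and -1.61, -1.66 and -1.51 with mipafox. No exposed array reached any control array, a position found at 11.1% of tested probes with paraoxon and 6.46% with mipafox. The log2 fold change was -0.73 (SE 0.14, adjusted p = 0.0764) with paraoxon and -0.80 (SE 0.14, adjusted p = 0.279) with mipafox in limma, and with slide as a block -0.75 and -0.81. Mipafox on slide 2 differed from mipafox on slide 1 by 0.022. With array weights the adjusted p was 0.00228 and 0.00464, with log2 fold changes of -0.89 and -0.93 that were short of the limit. That fit leaned on few arrays per treatment and called 671 probes with paraoxon and 800 with mipafox over all tested probes. PEG10, from the same cluster, had changes of 0.10 and 0.36. TP73 and PPP1R9A gave 0.66 (SE 0.28) and 0.33 (SE 0.16) with paraoxon, with adjusted p of 0.361 and 0.419. The TP73 signal was low, with means of -5.96 in control and -5.30 with paraoxon. The TP73 value was 0.12 in the authors' processed values, 0.19 with normexp, 0.32 with slide as a block and 0.41 without control C, and the PPP1R9A value was 0.21 without paraoxon B. With mipafox TP73 gave 0.36 (SE 0.28) and PPP1R9A 0.044 (SE 0.16).

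**Figure D2:**
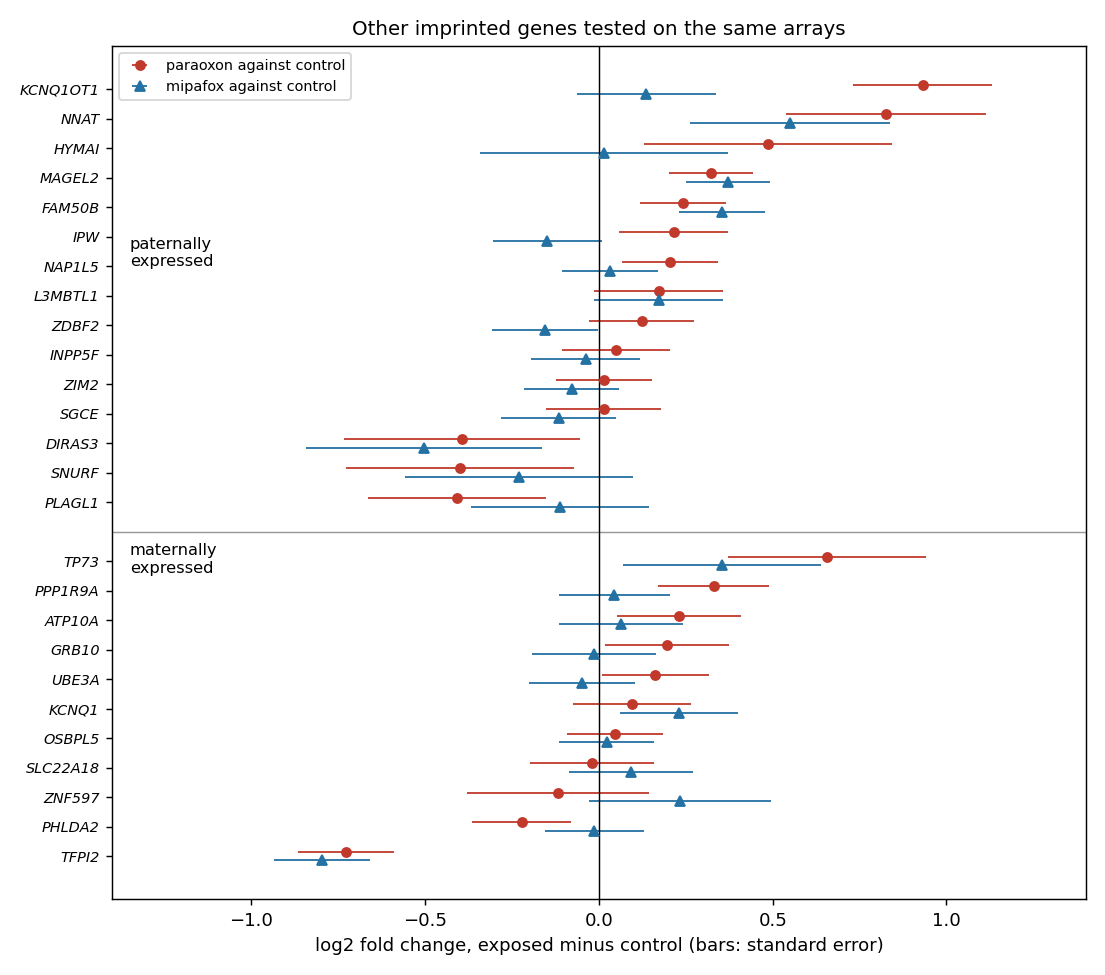
Log2 fold change against control (x axis) of 26 other imprinted genes (y axis), with paraoxon (red circles) and mipafox (blue triangles) and standard errors from the limma fit. KCNQ1OT1 lies at 0.93 with paraoxon, and TFPI2 at -0.73 with paraoxon and -0.80 with mipafox.

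Genes of the IGF axis were listed as well. They were receptors, binding proteins (IGFBP genes) and adaptors, and also IGF1, IGF2BP1, IGF2BP2 and IGF2BP3. Of 15 genes, 14 were tested, none was called, and IGF1 was well above background on no array. With paraoxon 7 were higher and 7 lower (median 0.018), and with mipafox 6 were higher and 8 lower (median -0.082). An unadjusted p under 0.05 was found for 2 of the 14 with paraoxon, beside 13.3% of tested probes. The binding proteins, which hold IGF2 outside the cell, had values of both signs with paraoxon. IGFBP3 gave -0.61 (SE 0.21), IGFBP4 -0.60 (SE 0.24) and IGFBP6 -0.33 (SE 0.17), with adjusted p of 0.261, 0.311 and 0.461 in limma. IGFBP2 gave -0.20, while IGFBP5 gave 0.13 (SE 0.17) and IGFBP1 0.10 (SE 0.20). With slide as a block IGFBP3 gave -0.95, IGFBP4 -1.17 and IGFBP6 0.20, and without paraoxon C IGFBP3 gave -0.37. With mipafox IGFBP3 gave -0.41 (SE 0.21, adjusted p = 0.796), IGFBP4 -0.25 (SE 0.24), IGFBP6 -0.30 (SE 0.17) and IGFBP2 -0.12 (SE 0.14). IGFBP5 gave 0.14 (SE 0.17) and IGFBP1 0.25 (SE 0.20) with mipafox. IGF1R, the receptor that carries the growth signal, gave 0.14 (SE 0.16) with paraoxon and -0.18 (SE 0.16) with mipafox. IGF2R, which clears IGF2, gave 0.16 (SE 0.12) and 0.10 (SE 0.12).

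Genes that write, read or remove the methylation marks of imprints gave no call with either compound. Of 14 listed, 10 were tested, with median log2 fold changes of 0.017 with paraoxon and 0.064 with mipafox. An unadjusted p under 0.05 was found for 0 of the 10 with either compound, beside 13.3% and 6.96% of tested probes. DPPA3, which shields imprints in the early embryo, was well above background on no array.

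H19, IGF2 and DLK1 are also high in embryonic mesoderm and endoderm, so the mean levels of marker lists are given beside them. The mean over 7 tested mesenchyme and muscle markers was -2.38 to -2.04 in control, -2.28 to -1.98 with paraoxon and -2.21 to -1.87 with mipafox. The mean over 3 tested endoderm markers was -2.19 to -2.05, -2.21 to -1.88 and -2.04 to -1.90, and that over 4 trophoblast markers was -4.81 to -4.31, -4.78 to -4.48 and -4.77 to -4.69. The mean over 12 embryonal carcinoma markers was 0.98 to 1.16, 0.87 to 1.08 and 0.98 to 1.27. The mean over 9 RA response markers was 2.21 to 2.23 in control, 2.06 to 2.20 with paraoxon and 2.15 to 2.31 with mipafox. Here the paraoxon arrays lay below the control arrays, with a median log2 fold change of -0.019 over the 9 markers. With paraoxon 3 markers were higher and 6 lower, from HOXB1 at -0.84 to MEIS2 at 0.36. HOXB1 was lower with mipafox too (-0.66). The mean over the 14 tested IGF axis genes was 0.84 to 0.85 in control. It was lower with paraoxon (0.76 to 0.78) and with mipafox (0.74 to 0.79). How often a list mean takes such a position was not computed. The part of any of these cell types in the values of the imprinted genes was not tested.

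For 5 members (H19, MEG3, MEST, NDN and SNRPN) RefSeq (GRCh38.p14) gave 14 promoter windows of 300 bases. NDN had 35 CpG dinucleotides in its window, a count reached by 14.1% of 35116 windows, and H19 had 6, reached by 66.3%. The MEG3 windows had 17 to 19, those of MEST 13 to 25 and those of SNRPN 2 to 18, beside a median of 14 over all windows. IGF2, DLK1, PEG3, PEG10 and CDKN1C were not matched. Methylation was not measured on these arrays.

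The tested probes with the array profile most like each member were found by the root mean square difference of their log2 values over the 9 arrays, each probe centred on its mean. For IGF2 the nearest were SCARA3 and RBP4, at 0.130 and 0.132 from a profile whose own root mean square was 0.261. For H19 they were SLC15A3, ACTR1A and ALAS1, at 0.0512 to 0.0613 from a profile of 0.173, and for MEG3 MMP28, TFE3 and KRTAP10-8, at 0.0580 to 0.0705 from a profile of 0.411. IGF2 thus had no neighbour as close in proportion as H19 or MEG3. None of the 10 members was among the nearest 3 of another. With only 3 places among all tested probes of other named genes, this does not show whether the members vary together.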

How the data were processed

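RNA of 9 samples was measured on 9 arrays. The authors deposited scanner intensity values for each array, made with Agilent Feature Extraction 10.5.1.1 according to the submitters' processing notes, and a table of processed log2 values, used here as an alternative. Their methods name limma, a fold change limit and a Benjamini-Hochberg threshold.

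Processed signals were log2-transformed and scaled by subtracting the 75th percentile of each array, after removal of control spots and outlier spots, and replicate spots were averaged. Probes were tested if a share of at least 0.5 of their spots was well above background on all arrays of any 1 treatment and if each treatment had 2 or more values. Limma 3.58.1 (R 4.3.3) fitted 1 mean per treatment to the 9 arrays, with Benjamini-Hochberg adjustment over 29134 probes. The threshold was an adjusted p under 0.05 together with a log2 fold change beyond 1. Where a gene had several probes, the one with the highest mean signal stood for it. For each gene list up to 3 genes with the smallest p in each comparison with control were named, and SNURF, IGF1R and IGF2R were named after their values were seen. Precision is limited by the number of arrays. The fit was tested on simulated data. The members and lists were chosen with earlier results of these data known. No set test was run. Alternatives covered normalization (quantile), background correction (normexp, offset 50), the values of the authors, dim probes, outlier spots, a block for slide or for replicate letter, fits of only the treatments compared, array weights, the call rule and the omission of single arrays. Figures were drawn with matplotlib 3.10.9.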

Additional observations from a re-analysis of the deposited data

How the results depend on the processing

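The number of member probes called stayed at 0 in each comparison under 21 alternatives, with 2 exceptions. With array weights 1 was called for mipafox against control, the dimmer IGF2 probe (1.06), and at an unadjusted p 1 was called for paraoxon against mipafox, the dimmer PEG3 probe (1.23). Leaving out each array in turn gave 0 in each comparison. Over all tested probes the count for paraoxon moved from 0 to 278 with only the control and paraoxon arrays in the fit, 671 with array weights, 7 with normexp background correction, 1 with a block for slide, 638 at an unadjusted p, and 275, 77 and 1 without mipafox A, B and C. For mipafox it moved from 0 to 800 with array weights, 246 at an unadjusted p, 6 with slide as a block and 78 without mipafox A, and for paraoxon against mipafox to 74 at an unadjusted p. The fit with a replicate block (letters A, B and C) called 0 probes in each comparison and changed no call. Deviations of arrays with the same letter correlated at -0.597 to 0.567, over 0.1 in 5 of 9 pairs. Those of arrays with different letters correlated at -0.587 to 0.661, over 0.1 in 7 of 18 pairs. The ranges were alike, so the letters were not taken as pairs.

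Of 357 alternative values, those of the brightest probes against control and of IGF2 between the compounds, 24 changed sign; dimmer probes and other genes between the compounds are not in this count. With slide as a block the paraoxon change was 0.14 for DLK1, 0.15 for PEG3, -0.29 for PEG10, -0.71 for MEST and 0.245 for CDKN1C, the mipafox change of PEG3 was 0.023, and the paraoxon change of IGFBP6 was 0.20. The paraoxon change was 0.017 for H19 with quantile normalization, -0.051 for PEG10 with the authors' values and -0.052 for MEST with normexp, and with array weights -0.015 for NDN and -0.078 for MEST. Leaving out each array in turn gave, for paraoxon, -0.25 to 0.015 for H19, -0.031 to 0.24 for PEG10, -0.44 to 0.078 for SNRPN, -0.043 to 0.11 for NDN and -0.036 to 0.074 for MEST. For mipafox it gave -0.014 to 0.25 for H19, -0.32 to 0.059 for SNRPN, -0.28 to 0.21 for MEST and -0.086 to 0.23 for CDKN1C. The cause was not tested. Signal close to background limits the dimmer probes of IGF2 and PEG3, and 3 arrays per treatment limit every comparison.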
